A study of Homo sapiens with 1 sample.

Results

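The miR-29 family was described across 1 microRNA (miRNA) array of DLD-1 cells. Its members were taken as the probes on the array named for a mature miR-29a, miR-29b or miR-29c, from either arm of the hairpin, whatever their signal. This gave 7 of the 2549 miRNAs on the array, of which 3 were 3p arms (hsa-miR-29a-3p, hsa-miR-29b-3p and hsa-miR-29c-3p) and 4 were 5p arms (hsa-miR-29a-5p, hsa-miR-29b-1-5p, hsa-miR-29b-2-5p and hsa-miR-29c-5p). The species prefix is left out below. They were read by 20 probes and 140 spots. DLD-1 is an established human colorectal carcinoma line, and si-NC is the label of the cells that received the negative control siRNA (n = 1 array). The study used such arrays to ask whether miRNA levels changed when circLONP2, a circular RNA, was depleted or overexpressed. Only the control array was analysed here, so no groups were compared and no test gave a p-value. Every error given is technical.

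A miRNA is cut from a hairpin precursor by Drosha and then Dicer, which leaves a short duplex of the 5p and the 3p arm. An Argonaute protein usually keeps the guide arm and releases its partner, the passenger arm, which is then mostly degraded. In the miR-29 family the 3p arm is the guide. It is known to repress mRNAs for collagens and other matrix proteins, for the DNA methyltransferases DNMT3A and DNMT3B, and for the survival protein MCL1, and low miR-29 has been linked to fibrosis and to several cancers.

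Sequences of all 7 members were found in RefSeq (GRCh38.p14). They are shown because the 3p arms share their targeting sequence while the 5p arms tell the hairpins apart. The seed, bases 2 to 8 from the 5′ end, is in capitals.
miR-29a-3p: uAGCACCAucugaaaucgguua
miR-29b-3p: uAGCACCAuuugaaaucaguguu
miR-29c-3p: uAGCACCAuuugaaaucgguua
miR-29a-5p: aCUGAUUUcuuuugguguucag
miR-29b-1-5p: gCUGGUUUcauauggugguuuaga
miR-29b-2-5p: cUGGUUUCacaugguggcuuag
miR-29c-5p: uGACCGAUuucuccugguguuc

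The 3p arms carry the same seed, AGCACCA, and no other of the 2370 mature miRNAs in the RefSeq table had it. Counted from the 5′ end of the first-named miRNA, miR-29a-3p and miR-29c-3p differ by the single substitution C10U, and 21 of 22 bases are identical. Between miR-29b-3p and miR-29c-3p there are 3 substitutions over 22 bases (A18G, G21U and U22A), all after the seed. The last 6 bases of miR-29b-3p are AGUGUU, a sequence known to send miR-29b to the nucleus. It ended 2 of the 2370 mature miRNAs (0.0844%), the other being miR-519e-3p. No pair of 5p arms shares a seed. The pair miR-29b-1-5p and miR-29b-2-5p is nevertheless close, with 20 of 22 overlapping bases identical and 2 substitutions (U11C and U19C). Their seeds differ because miR-29b-2-5p starts a base later.

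The 4 hairpins are shown with both arms in capitals, since the signals below were read arm by arm.
MIR29A: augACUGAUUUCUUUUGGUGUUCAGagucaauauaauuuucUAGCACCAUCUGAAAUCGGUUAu
MIR29B1: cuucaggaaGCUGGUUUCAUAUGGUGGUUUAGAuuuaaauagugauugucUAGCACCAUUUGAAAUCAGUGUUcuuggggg
MIR29B2: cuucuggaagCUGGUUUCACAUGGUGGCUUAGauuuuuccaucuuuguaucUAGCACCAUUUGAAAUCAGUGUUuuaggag
MIR29C: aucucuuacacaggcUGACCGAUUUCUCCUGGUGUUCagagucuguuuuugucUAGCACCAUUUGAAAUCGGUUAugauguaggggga

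In GRCh38.p14 the hairpins form a pair on chromosome 7 and a pair on chromosome 1, all on the minus strand. MIR29A lies at chr7:130876747-130876810 and MIR29B1 at chr7:130877459-130877539, with 648 bases between them. MIR29C lies at chr1:207801852-207801939 and MIR29B2 at chr1:207802443-207802523, with 503 bases between them. The chromosome 1 pair lies within the long noncoding RNA gene MIR29B2CHG in the RefSeq gene table, which lists no host gene for the chromosome 7 pair. The mature miR-29b-3p is identical from MIR29B1 and MIR29B2, so its signal could not be assigned to a locus. The 5p arms differ in sequence and can be assigned by name. Whether a 5p probe also binds another 5p arm was not tested.

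Each miRNA was read by 20 spots, spread over 2 probes of 10 spots or 4 probes of 5 spots for the family. A spot was called well above background by the scanner software, and a miRNA was called detected when at least 1 of its probes passed 3 times its error. The total gene signal is the sum of the signals of the probes that passed, in arbitrary intensity units. Signals of different probes also depend on how each probe binds and how each RNA is labelled. Orders and differences between miRNAs below are therefore of signals and not of copies in the cell.

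Of the 7 members, 6 were called detected, against 44.4% of all 2549 miRNAs. All 3 of the 3p arms were detected, where 43.8% of the 875 miRNAs named as 3p were. Of the 4 5p arms 3 were detected, where 49.1% of the 860 miRNAs named as 5p were. The exception was miR-29b-2-5p. In the 6 detected members each of the 20 spots was well above background, which held for 25.2% of all miRNAs. The highest spot of the family had a median pixel signal of 67333 against a saturation value of 778012, and no spot of the family was saturated.

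**Figure D1:**
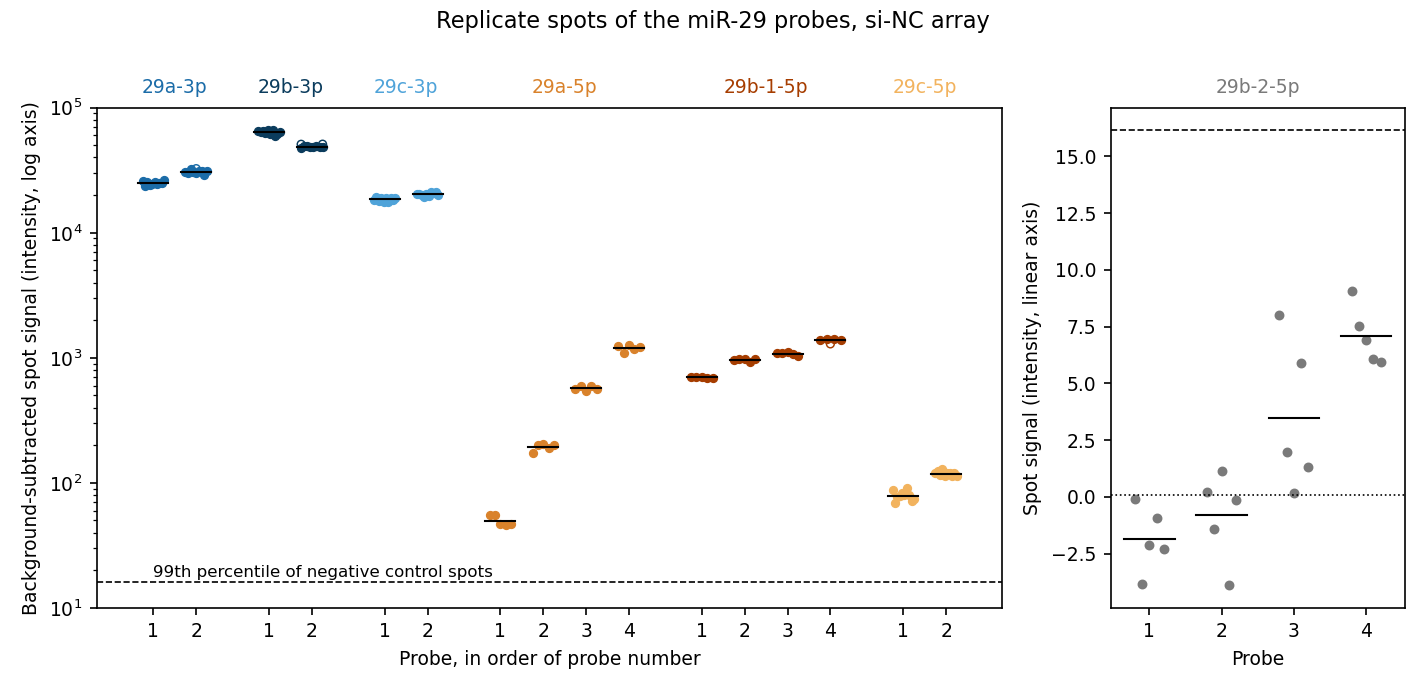
Background-subtracted signal of every replicate spot (points) for each miR-29 probe on the si-NC array, with the mean of each probe without outlier spots (bars) and outlier spots as open circles. The left panel has a log axis and the right panel, for miR-29b-2-5p, a linear axis; dashed lines mark the 99th percentile of negative control spots (16.1) and the dotted line their median. The spots of the 3p arms lie at 17714 or higher and those of miR-29b-2-5p at 9.08 or lower.

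The guide arms gave the strongest signals of the family. The total gene signal of miR-29b-3p, the arm with the AGUGUU end, was 20514 ± 1464 (error from the scanner software). It was 10166 ± 723 for miR-29a-3p and 7126 ± 505 for miR-29c-3p. These signals ranked 5, 11 and 18 among the 1133 detected miRNAs, whose median was 12.5.

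The separate spots kept the same order. The first probe of miR-29b-3p (A_25_P00010053) ran from 59366 through a median of 63929 to 66388, and the other (A_25_P00010054) from 47436 through 48536 to 49369, with 2 outlier spots left out. For miR-29a-3p the spots of A_25_P00012012 ran from 23514 through 25132 to 26281, and those of A_25_P00012013 from 29006 through 30567 to 32073, with 1 outlier spot left out. For miR-29c-3p they ran from 17714 through 18652 to 19381 and from 19352 through 20462 to 21143. The ranges of the 3 guides did not overlap with each other. The 2 probes of miR-29c-3p overlapped slightly.

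A relative log2 signal was taken against a reference of 142.6, the 75th percentile of the spots that belong to detected miRNAs. On this scale the brightest probe stood at 8.80 ± 0.05 (SD over 10 replicate spots) for miR-29b-3p. It stood at 7.74 ± 0.04 (9 spots) for miR-29a-3p and 7.16 ± 0.04 (10 spots) for miR-29c-3p. Since the guides share most of their bases, a probe for any of them may also bind the others. This was not tested, and the order of the guides is an order of probe signals.

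**Figure D2:**
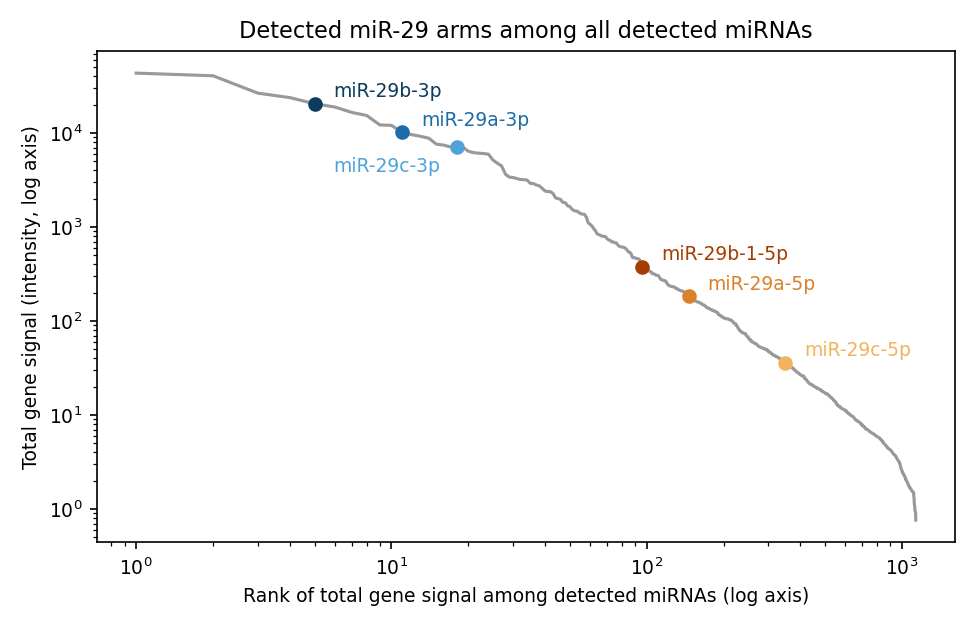
Total gene signal of the 1133 detected miRNAs in order of rank (grey line), with the 6 detected miR-29 arms as coloured points; both axes are logarithmic. The 3p arms stand at ranks 5, 11 and 18, and the 5p arms at ranks 96, 146 and 349.

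The partner arms gave lower signals, given here locus by locus. The order of miR-29a-5p and miR-29c-5p depended on the probe, as shown further below. From the chromosome 7 pair, miR-29b-1-5p had a total gene signal of 379 ± 19.5 (rank 96) and miR-29a-5p of 184 ± 12.3 (rank 146). From the chromosome 1 pair, miR-29c-5p had 36.1 ± 2.70 (rank 349), and miR-29b-2-5p was not detected. The detected 5p arms were thus all above 12.5, the median of the detected miRNAs.

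The 4 probes of miR-29b-1-5p, the partner from MIR29B1, had means from 698 to 1399. The spots of A_25_P00013252 were 691, 692, 698, 704 and 707, and those of A_25_P00013255, the brightest, were 1381, 1396, 1403 and 1416, with an outlier spot at 1291 left out. The probes between them had means of 964 ± 27.2 (SD, 5 spots) and 1078 ± 30.2 (SD, 5 spots). The lowest of the 20 spots, 691, stood far over the 16.1 that marks the 99th percentile of the negative controls.

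The probes of miR-29a-5p, the partner from MIR29A, covered a much wider range. The spots of A_25_P00013206 were 45.9, 46.5, 46.7, 54.9 and 55.1. Those of A_25_P00013207 were 173, 189, 199.6, 202 and 205, those of A_25_P00013208 were 545, 564, 564, 592 and 592, and those of A_25_P00013209 were 1100, 1169, 1218, 1254 and 1254. No spot of one probe reached the range of the next. The brightest probe stood at 3.07 ± 0.08 on the relative log2 scale (SD, 5 spots) and the dimmest at -1.52 ± 0.14, so whether miR-29a-5p counted as above the 75th percentile depended on the probe.

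The spots of miR-29c-5p, the partner from MIR29C, ran from 69.002 through a median of 78.7 to 90.2 for A_25_P00013483 and from 113 through 120 to 128 for A_25_P00013484. These ranges lie within the span of the 4 miR-29a-5p probes. The order of the 2 partners thus depended on the probe, although the total gene signal and the brightest probe were higher for miR-29a-5p. The brighter probe of miR-29c-5p was at -0.26 ± 0.06 on the relative log2 scale (SD, 10 spots), just under the 75th percentile.

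No spot of miR-29b-2-5p, the partner from MIR29B2, was well above background. The spots of A_25_P00013256 were -3.82, -2.32, -2.14, -0.93 and -0.075, and those of A_25_P00013257 were -3.89, -1.42, -0.12, 0.22 and 1.15. The spots of A_25_P00013258 were 0.16, 1.31, 1.98, 5.91 and 8.003, and those of A_25_P00013259 were 5.95, 6.08, 6.89, 7.55 and 9.08. Of the 20 spots 8 were at or below 0, and 0 reached the 99th percentile of negative control spots.

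The brightest of these probes, A_25_P00013259, came close to detection. Its mean of 7.11 ± 1.28 (SD, 5 spots) was passed by 2.90% of the 1000 negative control spots, which are single spots and not means of 5. The software flagged all 5 of its spots as positive and significant, though none as well above background. It did so for 2 spots of A_25_P00013258 and for 0 of A_25_P00013256 and A_25_P00013257. The signal of A_25_P00013259 was 2.62 times its error, short of the 3 that the software asks for. The arm was therefore not detectable at this signal over background, which is not evidence that it was absent. Its probes stayed below the 99th percentile of the negative controls on an array where miR-29b-1-5p, with which it shares 20 of 22 bases, gave a total gene signal of 379 ± 19.5. Among the 24 pairs of a 3p and a 5p arm on the array with a 3p signal of 1000 or more, matched mainly by name, the pair of MIR29B2 was 1 of the 4 with an undetected 5p arm (16.7%).

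The 3p and 5p arms were then set against each other hairpin by hairpin, as log2 total gene signal of the 3p arm minus that of the 5p arm. The difference was 5.79 ± 0.14 (error from the scanner software) for MIR29A and 5.76 ± 0.13 for MIR29B1, which differed by less than these errors. It was 7.62 ± 0.15 for MIR29C. The 3p signal was above the 5p signal in all 3 hairpins with both arms detected. For comparison, 855 pairs of a 3p and a 5p arm were found among the names on the array. Both arms were detected in 29.6% of these pairs, and the 3p signal was the higher in 46.2% of those 253.

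Over these 253 pairs the median difference was -0.36, the lower quartile -2.83 and the upper quartile 2.40, so the 3 values of the family lay above the upper quartile. Counted from the largest, MIR29C ranked 12, MIR29A 23 and MIR29B1 24 of the 253. The 253 included pairs with a dim 3p arm or a higher 5p signal. Among those with a 3p signal of 1000 or more the family did not stand out. There, only the pairs of miR-10a-3p (-4.27), miR-221-3p (4.38), miR-141-3p (4.93) and miR-200c-3p (5.09) had a smaller difference than MIR29A and MIR29B1. MIR29C lay nearer the middle, between the pairs of miR-23a-3p (7.39) and miR-24-3p (7.75). The largest difference was 11.6, for miR-19a-3p. For MIR29B1 the 3p signal may also include miR-29b-3p from MIR29B2, and the shares of the 2 loci cannot be told apart. For MIR29B2 no difference was computed, as its 5p arm had no measured level.

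The size of the difference depended on which probe stood for the 5p arm in MIR29A. With the brightest probe of each arm it was 4.67 for MIR29A, 5.51 for MIR29B1 and 7.43 for MIR29C. The 3p arm stayed the higher in each, and MIR29C kept the largest difference of the 3. MIR29A, which was level with MIR29B1 by total gene signal, was the lower of that pair by the brightest probes.

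**Figure D3:**
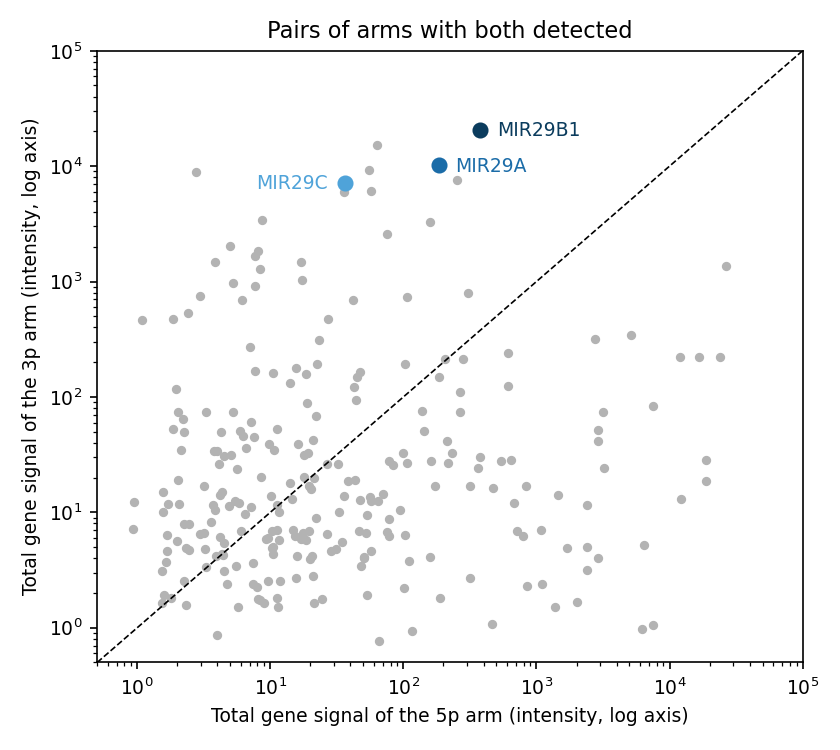
Total gene signal of the 3p arm against that of the 5p arm for the 253 pairs with both arms detected (grey points), with MIR29A, MIR29B1 and MIR29C in blue; both axes are logarithmic and the dashed line marks equal signals. The 3 miR-29 hairpins lie above the line by 5.76 to 7.62 on the log2 scale.

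The gap between the brightest and the dimmest probe was smaller in each guide arm than in each detected partner. The guides and miR-29c-5p have 2 probes while miR-29a-5p and miR-29b-1-5p have 4, and such a gap can grow with the number of probes. The brightest and the dimmest probe of an arm differed on the log2 scale by 0.14 ± 0.02 (SE from replicate spots) for miR-29c-3p, 0.29 ± 0.02 for miR-29a-3p and 0.39 ± 0.02 for miR-29b-3p. Over the 682 detected miRNAs with 2 probes well above background the median was 0.32, with quartiles of 0.13 and 0.70, so the guides lay within the usual range. For miR-29c-5p, also with 2 probes, it was 0.59 ± 0.04.

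The difference was 1.003 ± 0.01 for miR-29b-1-5p and 4.59 ± 0.07 for miR-29a-5p, which have 4 probes each. Over the 57 detected miRNAs with 4 probes well above background the median was 1.17, with quartiles of 0.62 and 2.11. The value of miR-29b-1-5p was thus below that median, and that of miR-29a-5p was the 4th largest of the 57. Among detected miRNAs with as many such probes, 36.8% had a smaller difference than miR-29b-1-5p. The same share was 27.7% for miR-29c-3p, 47.1% for miR-29a-3p and 57.2% for miR-29b-3p, so miR-29b-1-5p lay among the guides by this measure. A difference of 1 or more was found in 2 of the 6 detected members and in 19.6% of 800 miRNAs with 2 or more such probes. Both of these members have 4 probes, where the median was 1.17, while 682 of the 800 had 2 such probes, so the shares are not like for like. All 6 differed by more than 3 SE, as did 65.8% of the 800. That SE covers replicate spots alone and not the wider error of the software given below. The difference is also positive by construction, so no conclusion was drawn from this count.

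In both members with 4 detected probes the signal rose with probe number, which was noticed after the values had been seen. Such an order held for 52.6% of the 57 detected miRNAs with 4 probes. The probes of the undetected miR-29b-2-5p had means in the same order, from -1.85 to 7.11. Of the 4 members with 2 probes the order held for 3, miR-29b-3p being the exception, beside 63.8% of 650 detected miRNAs. Probe sequences and lengths were not used here, so no property of the probes was tested.

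**Figure D4:**
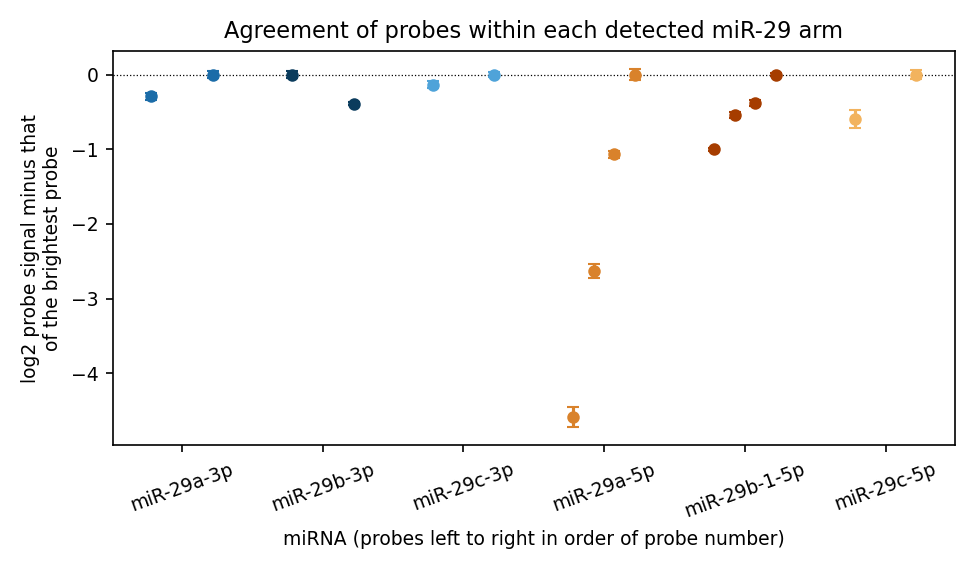
Log2 signal of each probe minus that of the brightest probe of the same arm, for the 6 detected miR-29 arms; points are means over replicate spots, bars the SD, and probes stand in order of probe number. Guide arms spread by 0.39 or less, miR-29b-1-5p by 1.003 and miR-29a-5p by 4.59.

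Replicate spots of a probe were close in all detected members. The coefficient of variation (CV, the SD as a percent of the mean) had a median of 3.38% over the 16 detected probes of the family and ran from 1.05% to 9.53%. For the 6 probes of guides it ran from 1.28% to 3.51%, beside a median of 3.76% over the 208 probes of the array with a signal of 1000 or more. The highest CV, 9.53%, belonged to the dimmest probe of miR-29a-5p. The error that the software gives for each of these 16 probes was between 10.0% and 11.3% of its signal, wider than the spread of the spots in each case. Differences between the probes of miR-29a-5p exceeded both, as its dimmest probe had 4.16% of the mean signal of its brightest. That share was 49.9% for miR-29b-1-5p, 66.5% for miR-29c-5p, 76.4% for miR-29b-3p and 81.7% for miR-29a-3p. For miR-29c-3p it was 90.9%, so its 2 probes differed by less than the error of the software.

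In the table of log2 values that the authors deposited, miR-29b-3p stood at 13.9, miR-29a-3p at 13.02 and miR-29c-3p at 12.5. The partners miR-29b-1-5p, miR-29a-5p and miR-29c-5p stood at 8.61, 7.57 and 5.25. The undetected miR-29b-2-5p was at 2.32, the lowest value of the table, which is log2 of 5 and marks no measured level. Compared with log2 of the total gene signal, the deposited values were lower by 0.29 to 0.44 for the guides and higher by 0.05 to 0.08 for the detected partners, so the gap between arms is narrower in that table.

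To place the family among other miRNAs, sequence neighbours and a list of related regulators were read. The miRNAs nearest in sequence to a guide were miR-195-5p, miR-199a-3p and miR-5000-3p, each 8 edits (substitutions, insertions or deletions) away, among the 2241 other miRNAs of the array with a RefSeq sequence. The total gene signal was 178 ± 16.03 for miR-195-5p, while miR-199a-3p and miR-5000-3p were not detected. Of 7 other miRNAs known to act on DNA methyltransferases 5 were detected (miR-148a-3p, miR-148b-3p, miR-152-3p, miR-101-3p and miR-185-5p), with total gene signals from 73.8 to 1280, and miR-143-3p and miR-342-3p were not. All 9 miRNAs of a fixed list for colon epithelium were detected, with signals from 52.2 to 9249. Of 16 markers of other tissues 5 were detected, with signals from 21.5 to 695. These were 3 of 5 for blood, 1 of 5 for stroma and vessel, and 1 of 6 for muscle, liver and neural tissue. The highest of them, 695, was miR-142-3p of the blood list. Beside each of these list counts stands the 44.4% of all 2549 miRNAs that were detected.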

How the data were processed

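Total RNA from 1 DLD-1 sample (si-NC) was hybridised to a single-colour Agilent miRNA array. The labels name Cyanine 3-pCp and T4 RNA ligase for the labelling, the methods name a cDNA kit, and which was used is not settled. Feature Extraction 11.0.1.1 gave the intensity of each spot, per the file headers, and the deposited intensity is background-subtracted and not normalized between arrays. The authors also deposited log2 values, quantile normalized in GeneSpring. Their centring is not stated. Of the columns of other samples, 0 were left out.

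Members were matched by the name of the probe's miRNA. Outlier spots were left out (4 of 140 spots of the family). The signal of a probe was the mean of its replicate spots, and its log2 was taken relative to the 75th percentile of spots that belong to detected miRNAs. Probes entered CVs and probe differences when at least 50% of their spots were well above background. Total gene signals matched the summed signals of passing probes within 0.1% for all 1133 detected miRNAs, and the signal of a probe was 0.0183 times its mean times its number of spots, so probes with 5 spots weigh less than those with 10. Arms were paired by name, with or without a copy number (853 pairs), and 2 more pairs came from RefSeq hairpins. The RefSeq table is not complete and held 721 of the 855 pairs. Undetected miRNAs carry a placeholder of 0.1 with an error of 1, which was not used. The calculations of probe means, CVs and probe differences were tested on simulated data with the layout of the array. Every simulated spot was well above background and none was an outlier. Detection calls, total gene signals and arm differences were not tested in this way.

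The text names all 7 members, the 3 nearest miRNAs by edit distance and fixed lists. Members and lists were chosen with earlier results of these data known. The alternatives were other detection rules, the percentile over all miRNA spots, normexp background correction (offset 50) on median spot signals, outlier spots kept, other summaries of probes, no filter on dim probes, and the deposited values. Counts within 1.5 times were taken as unchanged, and other values within 1 SD or error. Precision is limited by the number of arrays, here 1. Python 3.11.15 with numpy 2.4.6, pandas 2.3.3 and matplotlib 3.10.9, and R 4.3.3 with limma 3.58.1, were used.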

Additional observations from a re-analysis of the deposited data

How the results depend on the processing

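Over 21 results, 88 alternative values were computed, of which 39 stayed within their limits and 49 moved. A change of sign was counted only for the arm differences of the 3 hairpins, a small part of the 88, and 0 were found. The count of 6 detected members was the same under all 4 other detection rules, though the rule on the deposited floor gives it by construction. The median relative log2 signal of the guides, 7.74, became 10.2 when the reference percentile was taken over every miRNA spot, 7.26 after normexp, 7.61 with all probes averaged and 9.27 from the deposited values. That of the detected partners, 3.07, became 5.51, 2.65, 1.82 and 3.83 in the same settings. These medians of 3 arms are in each setting the values of miR-29a-3p and miR-29a-5p. With all probes averaged, miR-29b-1-5p moved from 3.29 to 2.86 and miR-29c-5p from -0.26 to -0.53. The reference over every miRNA spot was lower (26.3 against 142.6), which also put miR-29c-5p at 2.18 in place of -0.26. The deposited values are set against their own median. Normexp also added an offset of 50 to every signal, which narrows log2 differences by construction, most where signals are low. After normexp the probes of a member differed by a median of 0.38 in place of 0.49. The difference became 3.55 in place of 4.59 for miR-29a-5p, 0.94 in place of 1.003 for miR-29b-1-5p and 0.37 in place of 0.59 for miR-29c-5p. Those of the guides stayed within their limits. The difference between arms moved to 4.67 for MIR29A, 5.51 for MIR29B1 and 7.43 for MIR29C with the brightest probe of each arm. On top of that choice, outlier spots kept gave 4.68, 5.53 and 7.43, so they added little, and normexp gave 4.61, 5.47 and 6.86. The deposited values gave 5.45, 5.27 and 7.20. The brightest probe of miR-29a-5p leaves out 3 dimmer ones by construction, and otherwise the cause was not tested. No paired analysis was possible because there was 1 array. Signal over background limits the detection of miR-29b-2-5p alone among the members. The values of the dim 5p probes also depend on the background correction and its offset, which were not separated.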

Other observations

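The contrast between miR-29b-1-5p and miR-29b-2-5p led to a look at other miRNAs cut from several hairpins, chosen after the values of the family had been seen. Among detected arms shared by 2 hairpins whose opposite arms differ in name, 18 were found. For 9 of them a single opposite arm was detected, for 7 both were, and for 2 neither was. Of all 2549 miRNAs on the array 44.4% were detected, and how often such splits would arise by chance was not tested. The detected opposite arms had total gene signals from 1.06 to 379. Of the 24 pairs of arms with a 3p signal of 1000 or more, 4 (16.7%) had an undetected 5p arm. The 5p arms were miR-29b-2-5p, miR-19b-2-5p, miR-24-2-5p and miR-1273g-5p. In the former 3 the 3p arm is shared with another hairpin, as in 6 of the 24 pairs. The sister arms of these 3 were detected, miR-29b-1-5p with a total gene signal of 379 ± 19.5, miR-19b-1-5p with 62.9 ± 4.10 and miR-24-1-5p with 7.69 ± 0.903. The number of spots well above background was 20, 19 and 12 of 20 for these, and 0, 0 and 1 for miR-29b-2-5p, miR-19b-2-5p and miR-24-2-5p.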
